A study of Mus musculus with 5 samples.

Results

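The endoplasmic reticulum (ER) chaperone and unfolded protein response genes described here are 10 of the 23478 genes counted by RNA-Seq in GFP-sorted lung cells of newborn mice. They were chosen by gene symbol as a pathway group, by a rule that uses no measured value, although earlier results of these data were known. The members are Hspa5, Hsp90b1, Pdia4, Pdia6, Dnajb9, Dnajc3, Sdf2l1, Herpud1, Xbp1 and Creld2. All 10 had enough counts in the 5 libraries to be tested, among 15298 genes that did. The RNA came from cells sorted by FACS from lungs at postnatal day 6 (P6), after each pup had received tamoxifen (100 µg) on both P0 and P1. All mice carried Gli1-CreERT2, a tamoxifen-activated Cre recombinase driven by the Gli1 gene, and a Rosa26-eGFP reporter that Cre switches on. The 2 Control libraries came from mice with Igf1r flox/wildtype alleles, and the 3 Igf1r-deleted libraries from mice with Igf1r flox/flox alleles. Igf1r encodes the type 1 receptor for insulin-like growth factors, and the comparison asks what its loss changed in these cells. Control cells could therefore lose 1 copy of Igf1r themselves, and GFP marks cells with active Cre and their progeny rather than cells shown to have lost the receptor. The labels call the cells fibroblasts. They do not say whether each library came from separate animals, so the p-values measure the spread between these libraries, which may be technical.

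Proteins destined for secretion, the cell surface or the matrix are folded in the ER, where BiP (encoded by Hspa5) holds unfolded chains and its partners feed, refold or dispose of them. When unfolded chains build up, the sensors IRE1, PERK and ATF6 start the unfolded protein response. IRE1 splices the Xbp1 mRNA into the form that encodes an active transcription factor, PERK slows translation and favors ATF4, and cleaved ATF6 enters the nucleus, so that chaperone, folding and degradation genes are transcribed. Lung fibroblasts and myofibroblasts of the postnatal period secrete much collagen and elastin, and matrix-secreting cells are known to depend on this machinery. Gene counts show the amount of mRNA. They do not show Xbp1 splicing, sensor phosphorylation or ATF6 cleavage.

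The promoters are shown because they set the members apart by sequence, with no use of the counts. ATF6 and XBP1 act through the ER stress response element (ERSE), which is CCAAT, 9 bases of any kind and CCACG, and through ERSE-II, which is ATTGG, 1 base and CCACG. The ERSE was first described in promoters of ER chaperone genes, so its presence in some members is background knowledge. RefSeq gave 1 promoter window for each of the 10 members on GRCm38.p6, the assembly of mm10, from 250 bases before the start to 50 bases from the start on, and both strands were searched. In the lines below the matches are in capitals, written 5′ to 3′ on the strand of the gene, with the flanking 15 bases in lower case except for Hspa5.
Hspa5, chr2:34772025-34772043, plus strand: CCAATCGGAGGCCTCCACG
Hsp90b1 distal, chr10:86705623-86705671, minus strand: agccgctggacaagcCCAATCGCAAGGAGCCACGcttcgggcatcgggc
Hsp90b1 proximal, chr10:86705518-86705566, minus strand: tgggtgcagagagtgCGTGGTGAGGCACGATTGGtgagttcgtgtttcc
Pdia6, chr12:17266476-17266524, plus strand: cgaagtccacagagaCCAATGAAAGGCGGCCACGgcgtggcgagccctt
Dnajc3, chr14:118937812-118937860, plus strand: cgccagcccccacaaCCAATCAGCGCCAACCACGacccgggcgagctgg
Creld2, chr15:88819505-88819553, plus strand: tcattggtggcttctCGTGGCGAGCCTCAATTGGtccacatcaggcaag
Herpud1, chr8:94386362-94386402, plus strand: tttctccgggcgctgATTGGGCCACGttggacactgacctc

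An ERSE lay in the windows of 5 members, Hspa5, Hsp90b1, Pdia6, Dnajc3 and Creld2, and in 39 (0.119%) of the 32851 RefSeq promoter windows. Hsp90b1 held 2 matches. The proximal match of Hsp90b1 and that of Creld2 lie on the opposite strand to the gene, so CGTGG comes first in the printed line. Counted from 0 at the RefSeq start, the matches began between −212 (distal Hsp90b1) and −65 (Hspa5). For Hspa5 the gene as annotated in GENCODE M21 starts farther upstream, at 34771970, so its match lies within the annotated gene. Herpud1 held an ERSE-II, found in 12 (0.0365%) of all windows. TGACGTG, the core of a further element bound by XBP1 and ATF6, was found in Hspa5 and in 661 (2.01%) of all windows. The windows of Pdia4, Dnajb9, Sdf2l1 and Xbp1 held no match to these elements. Of those 4, the bare pentamer CCACG was present in Pdia4, Dnajb9 and Sdf2l1 and absent in Xbp1, and 32.8% of all windows held it. The Dnajb9 window (44210019 to 44210318, minus strand) lies within the gene as annotated in GENCODE M21, which starts at 44210326. Bases upstream of that annotated start were therefore not searched for Dnajb9. A match is a run of letters and not a shown binding site.

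**Figure D1:**
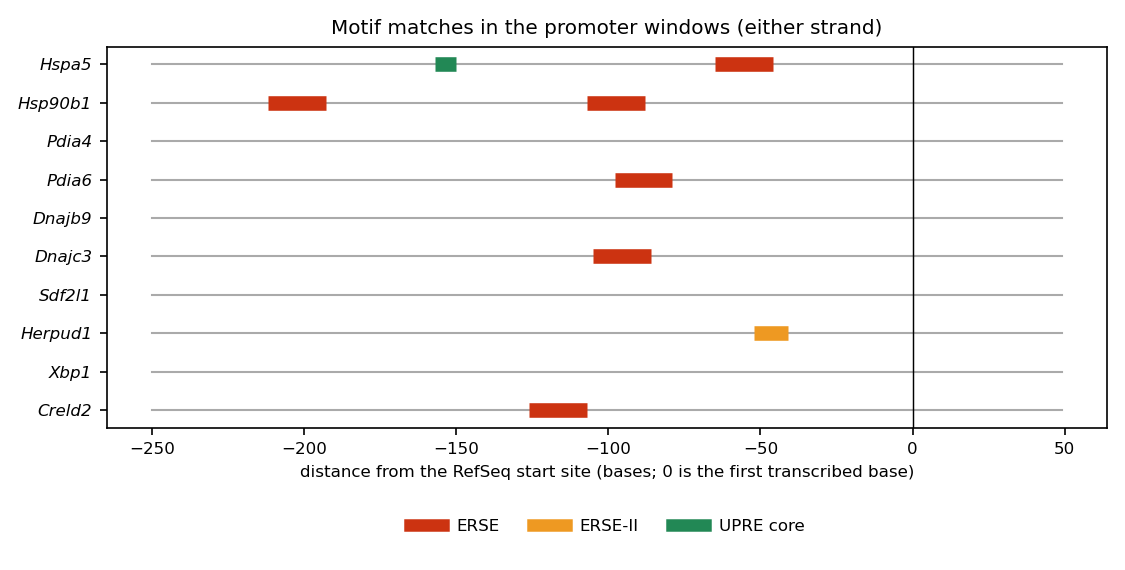
Motif matches in the promoter windows of the 10 genes. The x axis is the distance in bases from the RefSeq start, gray lines are the windows searched, and blocks are matches to the ERSE, ERSE-II and the TGACGTG core on either strand. Of the 10 windows, 6 hold an ERSE or ERSE-II, and those of Pdia4, Dnajb9, Sdf2l1 and Xbp1 are empty.

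Library totals ranged from 35116766 to 37597857 counts, and levels are given as CPM, counts scaled to a common library size after correction for library composition with TMM factors (0.961 to 1.06). Igf1r stood at 324 CPM in both Control libraries, and at 140, 177 and 194 CPM in the Igf1r-deleted ones. Between libraries that share a genotype, counts differed by 23.2 to 50.7 times what counting error gives, as chi-square over its degrees of freedom. Control replicate 2 and Igf1r-deleted replicate 1 differed by 20.7 times on this measure, less than any pair of the same genotype, so these libraries were alike across the labels although their Igf1r levels followed the genotypes. Summed fibroblast markers reached 57337 to 64199 CPM in Control and 42173 to 57545 CPM in Igf1r-deleted libraries. Markers of other cells were present in every library, with epithelial sums of 1098 to 1173 and 532 to 1176 CPM, endothelial sums of 556 to 571 and 273 to 788 CPM, and hematopoietic sums of 438 to 605 and 220 to 496 CPM. Of the marker genes with a row in the table, 0 were at 0 in all libraries. In sorted bulk RNA, fewer cells of a type and less RNA per cell cannot be told apart.

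The ER chaperone genes were abundant in these cells, and no difference in their mRNA was detected after deletion of Igf1r. Of the 10 members, 0 passed an adjusted p of 0.05, and the adjusted p-values ran from 0.381 to 0.933 (quasi-likelihood F test of edgeR, adjusted by Benjamini-Hochberg over the genes tested). At an unadjusted p under 0.05, 1 member was lower in Igf1r-deleted libraries (Dnajb9) and 0 were higher, against 12.4% of all genes in either direction, 6.75% lower and 5.65% higher. The median log2 fold change of the members was 0.064, beside 0.015 over all genes tested. It was positive for 7 members and negative for 3. The genotypes did not overlap for 2 members, Pdia4 (higher) and Dnajb9 (lower), while 31.0% of all genes did not overlap, 14.9% lower and 16.0% higher. These shares of the members are near or under those of all genes.

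Across the whole table edgeR called 0 genes at an adjusted p under 0.05, with 1897 genes at an unadjusted p under 0.05, and DESeq2's Wald test called 200 (1.70%) of the 11735 genes for which it gave an adjusted p. Of the members, DESeq2 called 0, with a smallest adjusted p of 0.238 for Dnajb9. With 2 libraries against 3, a permutation test cannot go below p = 0.1. Igf1r itself had a log2 fold change of −0.93, with an adjusted p of 0.354 from edgeR and 1.06e-05 from DESeq2's Wald test. An adjusted p over 0.05 from edgeR therefore does not show that a gene was unchanged.

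**Figure D2:**
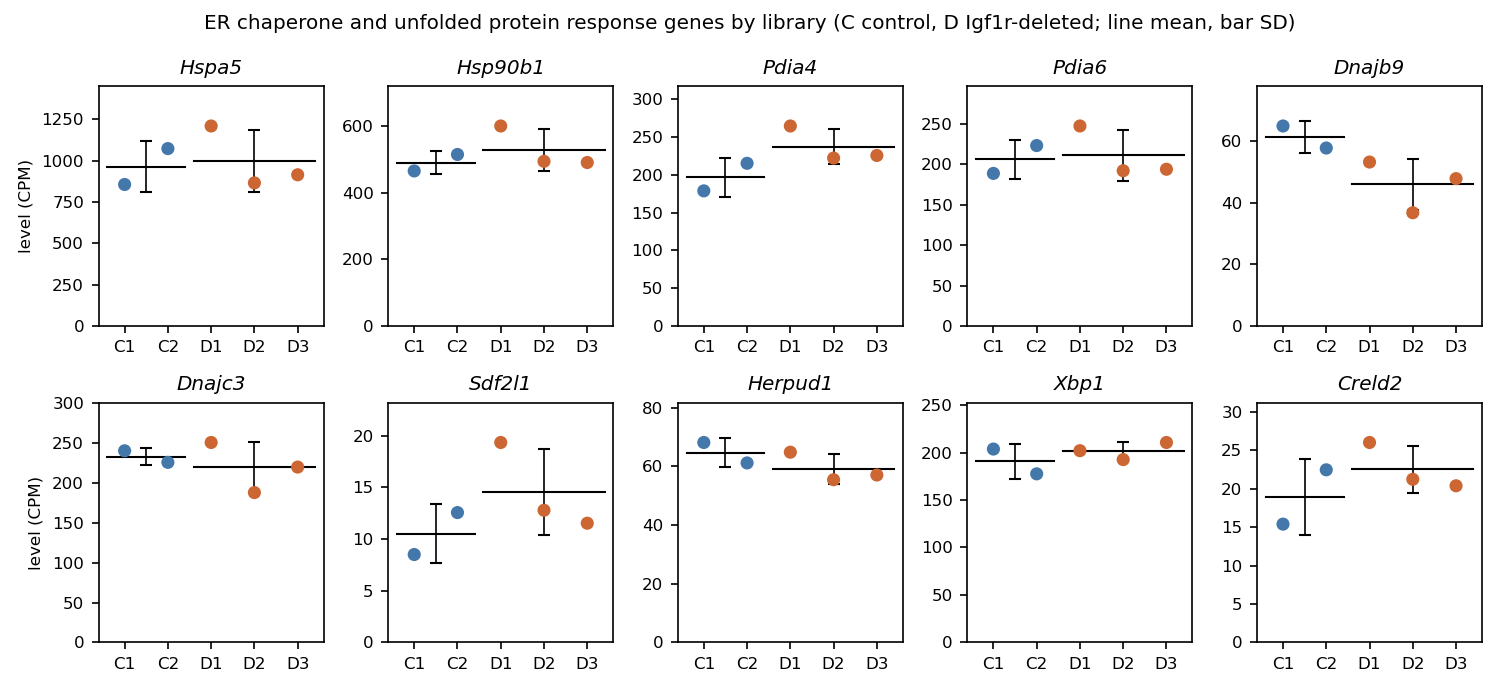
Level of each gene in CPM (y axis, from 0) in Control replicates 1 and 2 (C1, C2, blue) and Igf1r-deleted replicates 1 to 3 (D1, D2, D3, orange), with the mean as a line and the SD as a bar. The genotypes overlap for 8 genes, all Igf1r-deleted points lie above both Control points for Pdia4, and all lie below for Dnajb9.

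Compared per length of exons, the chaperones of the ER lumen led the members. Hspa5 reached a mean of 232 CPM per kb over the 5 libraries, rank 121 of the 14479 tested genes with an annotated length. Hsp90b1 followed with 127 CPM per kb (rank 242) and Pdia4 with 92.2 (rank 354). Xbp1 (60.7 CPM per kb), Pdia6 (55.9) and Dnajc3 (43.8) came next, then Herpud1 (26.3), Dnajb9 (20.4), Creld2 (15.5) and Sdf2l1 (11.7, rank 3543). Xbp1 and Pdia6 were neighbors whose order changed between libraries, since Xbp1 was at 54.7 to 64.8 and Pdia6 at 50.5 to 66.1 CPM per kb, whereas Hspa5 stayed above Hsp90b1 in every library. The 10 genes together took 0.220% to 0.288% of a library's counts.

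BiP, the Hsp70 chaperone of the ER and the protein that holds the sensors inactive, had the most abundant mRNA of the members per length of exons. Hspa5 (ENSMUSG00000026864, chromosome 2 of mm10, 34771970 to 34777547, plus strand) was 855 CPM in Control replicate 1 and 1072 CPM in replicate 2, and reached 1209, 865 and 914 CPM in the Igf1r-deleted replicates, in the order of their numbers as everywhere here. Control replicate 1 was the lowest library and Igf1r-deleted replicate 1 the highest, with the other 3 between them, and the gap between the Control libraries was larger than the difference between genotypes. The means were 964 ± 153 CPM (SD, n = 2) and 996 ± 186 CPM (SD, n = 3). Its log2 fold change was 0.047 with a standard error of 0.18 and a 95% interval of −0.38 to 0.47 (adjusted p = 0.928, quasi-likelihood F test of edgeR).

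GRP94, the Hsp90 of the ER, folds a narrower set of clients that includes integrins and insulin-like growth factors. Its gene Hsp90b1 (chromosome 10, 86690209 to 86705509, minus strand) was 466 and 515 CPM in Control and 601, 495 and 491 CPM in Igf1r-deleted libraries. Igf1r-deleted replicate 1 stood above the rest, and the other 2 fell between the Control values. Its log2 fold change was 0.11 (95% interval −0.20 to 0.41, edgeR's adjusted p = 0.744). Of the exon bases of Hsp90b1, 10.3% overlap annotated genes on the opposite strand and 5.38% overlap genes on the same strand, and 12.5% of its 30-base sequences recur in other annotated genes, most of them in the overlapping 1810014B01Rik, so a small part of its counts is uncertain. That gene had 64 to 111 counts per library, against at least 16171 for Hsp90b1.

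The disulfide isomerases make and rearrange disulfide bonds in new chains, and Pdia4 and Pdia6 both encode enzymes that work with BiP. Pdia4 (chromosome 6, 47796141 to 47813430, minus strand) was 179 and 215 CPM in Control and 265, 222 and 226 CPM in Igf1r-deleted libraries. All 3 Igf1r-deleted values were above both Control values, although Igf1r-deleted replicate 2 exceeded Control replicate 2 by only a few CPM. The log2 fold change was 0.27 with a standard error of 0.13 (95% interval −0.034 to 0.57, edgeR's adjusted p = 0.434). It was the only member whose difference between genotype means was larger than the range within the Igf1r-deleted libraries.

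Pdia6 (chromosome 12, 17266545 to 17284770, plus strand) was 189 and 223 CPM in Control and 248, 192 and 194 CPM in Igf1r-deleted libraries. The Igf1r-deleted values lay on both sides of Control replicate 2 and all above Control replicate 1, and the log2 fold change was 0.036 (95% interval −0.31 to 0.38, edgeR's adjusted p = 0.933).

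Dnajb9, Dnajc3 and Sdf2l1 encode partners of BiP. Dnajb9 is ERdj4, a J-domain cochaperone that directs misfolded chains to degradation and brings BiP to IRE1. Its gene (chromosome 12, 44205559 to 44210326, minus strand) was 64.9 and 57.7 CPM in Control and 53.2, 36.7 and 47.8 CPM in Igf1r-deleted libraries. All Igf1r-deleted values were below both Control values, and Igf1r-deleted replicate 2 was the lowest. The log2 fold change was −0.42 with a standard error of 0.16 (95% interval −0.79 to −0.041, edgeR's adjusted p = 0.381), so the difference did not pass the adjusted threshold. Its unadjusted p was under 0.05 in the fit of all 5 libraries, and over 0.05 when Control replicate 1, Igf1r-deleted replicate 2 or Igf1r-deleted replicate 3 was left out, with log2 fold changes of −0.34, −0.29 and −0.45.

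Of the 30-base sequences of Dnajb9, 11.1% recur in other annotated genes, most of them in Gm6568, an annotated processed pseudogene with 470 to 695 counts per library, so the division of reads between them is uncertain. Gm6568 alone was 19.7 and 19.0 CPM in Control and 15.5, 11.8 and 13.7 CPM in Igf1r-deleted libraries, the same order of libraries within each genotype as Dnajb9 itself. With both rows summed, a choice made after seeing the data, the level was 84.6 and 76.7 CPM in Control and 68.7, 48.5 and 61.5 CPM in Igf1r-deleted libraries. The log2 fold change of the sum was −0.44 (standard error 0.15, edgeR's adjusted p = 0.359).

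Dnajc3 is p58IPK, a cochaperone of BiP also known as an inhibitor of PERK and related kinases. The gene (chromosome 14, 118937976 to 118981697, plus strand) was 240 and 226 CPM in Control and 251, 188 and 220 CPM in Igf1r-deleted libraries. The highest and the lowest library were both Igf1r-deleted, and the log2 fold change was −0.087 (95% interval −0.40 to 0.23, edgeR's adjusted p = 0.805).

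Sdf2l1, which acts with J-domain cochaperones in the BiP cycle, was the least abundant member and the most variable. Its gene (chromosome 16, 17130138 to 17132383, minus strand) was 8.50 and 12.6 CPM in Control and 19.3, 12.8 and 11.5 CPM in Igf1r-deleted libraries, from 295 counts in the lowest library to 682 in the highest. Igf1r-deleted replicate 1 exceeded Control replicate 1 by 2.27-fold, while Igf1r-deleted replicate 3 lay below Control replicate 2. The log2 fold change was 0.47 with a standard error of 0.27, with a 95% interval of −0.17 to 1.10 that was the widest of the members (edgeR's adjusted p = 0.494).

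Herpud1 encodes a membrane protein of the ER-associated degradation complex, which returns misfolded chains to the cytosol for the proteasome. Its gene (chromosome 8, 94386438 to 94395377, plus strand) was 68.1 and 61.2 CPM in Control and 64.8, 55.4 and 57.1 CPM in Igf1r-deleted libraries. Igf1r-deleted replicate 1 lay between the Control values and the other 2 below them, with a log2 fold change of −0.13 (95% interval −0.39 to 0.13, edgeR's adjusted p = 0.645).

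Xbp1, the transcription factor gene whose mRNA IRE1 splices, was the steadiest member, with a highest library 1.19 times the lowest. Its gene (chromosome 11, 5520659 to 5525893, plus strand) was 204 and 178 CPM in Control and 202, 193 and 211 CPM in Igf1r-deleted libraries. The Control values enclosed 2 of the Igf1r-deleted values, and the log2 fold change was 0.082 (95% interval −0.16 to 0.33, edgeR's adjusted p = 0.760). The counts are for the whole gene and hold both the spliced and the unspliced form.

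Creld2 encodes a secreted ER protein with disulfide isomerase activity and is known to rise on ER stress. Its gene (chromosome 15, 88819646 to 88826683, plus strand) was 15.4 and 22.5 CPM in Control and 26.0, 21.2 and 20.4 CPM in Igf1r-deleted libraries. Control replicate 1 was the only low library, since Control replicate 2 lay within the Igf1r-deleted range. The log2 fold change was 0.25 (95% interval −0.19 to 0.70, edgeR's adjusted p = 0.597).

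**Figure D3:**
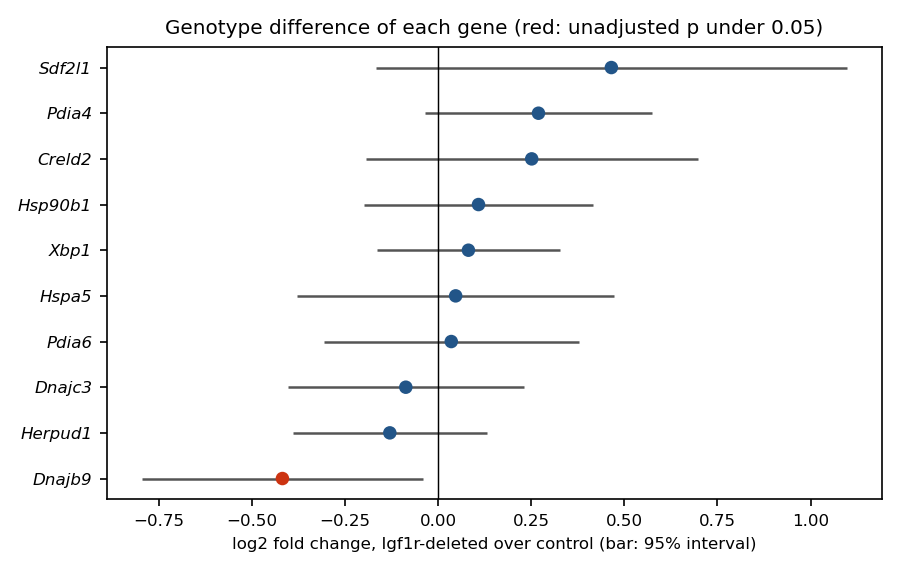
Log2 fold change of each gene, Igf1r-deleted over Control (x axis), as a point with its 95% interval from edgeR's quasi-likelihood fit. The interval of Dnajb9 lies below 0, from −0.79 to −0.041, and those of the other 9 genes include 0, before any adjustment for the number of genes.

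For 7 of the 10 members the difference between genotypes was smaller than the gap between the 2 Control libraries, and for 9 it was smaller than the range within the Igf1r-deleted libraries. Some of this spread had the same extremes in several members. Hspa5, Hsp90b1, Pdia4, Pdia6, Sdf2l1 and Creld2 each had their lowest level in Control replicate 1 and their highest in Igf1r-deleted replicate 1. On the log2 CPM scale, centered on each gene's mean, these 6 genes had average values of −0.29 and 0.057 in Control, then 0.34, −0.042 and −0.059 in the Igf1r-deleted ones. The pattern was noticed after the values were seen, and the same order was found in 930 (6.08%) of all genes tested. Dnajb9, Dnajc3, Herpud1 and Xbp1 did not share it, and averaged 0.16 and 0.0096 in Control and 0.085, −0.23 and −0.032 in Igf1r-deleted libraries.

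Of the 6 genes, Hspa5 and Hsp90b1 encode chaperones, Pdia4, Pdia6 and Creld2 disulfide isomerases or a relative, and Sdf2l1 a partner of BiP. The other 4 hold the BiP cochaperones Dnajb9 and Dnajc3 as well as Herpud1 and Xbp1, so partners of BiP were found on both sides. Of the 5 members with an ERSE, 4 had the pattern (all but Dnajc3), as did Pdia4 and Sdf2l1 without a match. Among the 19 tested genes with an ERSE in the promoter window, 5 (26.3%) had it, beside the 6.08% of all genes. Of those 5, 4 are the members Hspa5, Hsp90b1, Pdia6 and Creld2, in which the pattern was noticed, and the other is Calr. The share thus rests on genes in which the pattern was first seen, and cannot be weighed against 6.08%. Of the 18 other ER chaperones and cochaperones listed, 8 had the pattern (Calr, Hyou1, Dnajb11, Manf, Cnpy2, Cnpy3, Cnpy4 and Dnajb14). It was found in 4 of 17 N-glycosylation genes, 3 of 10 for collagen folding, 4 of 24 for ER-associated degradation, 3 of 19 for translocation, 1 of 9 sensor and activation genes, 1 of 18 other disulfide isomerases and oxidases, and 0 of 9 PERK outputs. These counts are a description, and no difference between the lists was tested. Both libraries at the ends of the pattern differ in genotype, so the median of the members depends on them. It was −0.024 when Control replicate 1 was left out and −0.049 when Igf1r-deleted replicate 1 was.

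**Figure D4:**
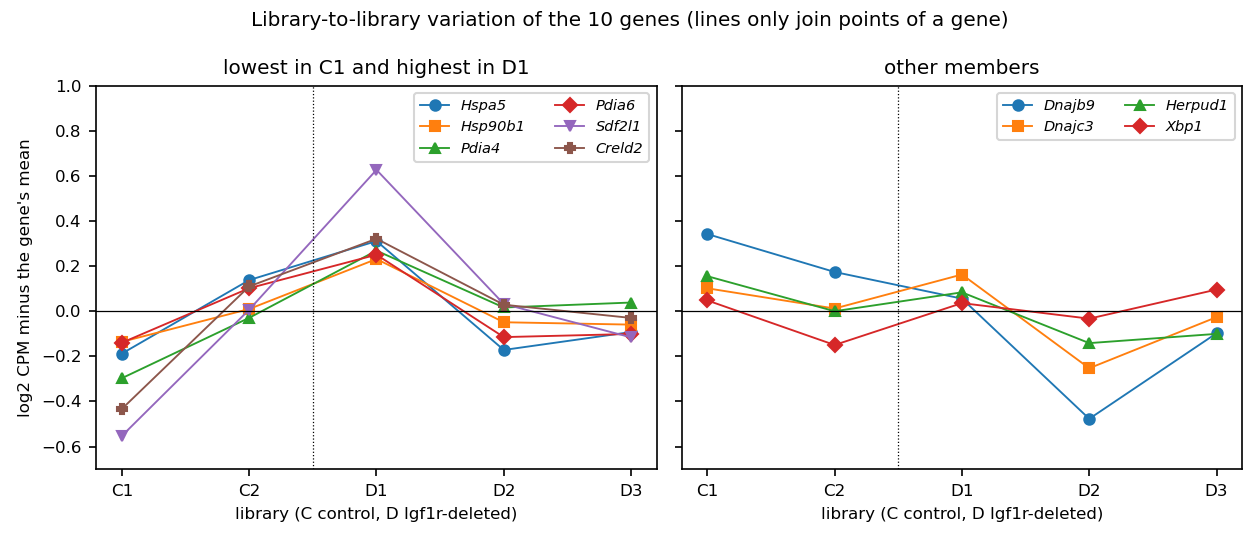
Log2 CPM of each gene minus its mean over the 5 libraries (y axis) in Control (C1, C2) and Igf1r-deleted (D1 to D3) libraries, where lines only join the points of a gene. The 6 genes on the left are lowest in C1 and highest in D1, with means of −0.29 and 0.34, and the 4 on the right are not. The genes were sorted by these same values, so the contrast in C1 and D1 follows from the sorting.

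The genes nearest to Hspa5 were found by the root mean square difference of centered log2 CPM over the 5 libraries, out of 15297 other genes. They were Pi15 (0.027), Frem1 (0.035), Psmd14 (0.042), Ndufc1 (0.044) and P4ha1 (0.045). P4ha1 encodes the catalytic subunit of a collagen prolyl hydroxylase of the ER, and Frem1 a matrix protein. No link of Pi15, Psmd14 or Ndufc1 to the ER or the matrix was examined, and Ndufc1 was low, at 1.70 to 2.27 CPM. Pdia6 was 7th with 0.046, Hsp90b1 was 80th with 0.091, Pdia4 613th and Creld2 808th. Dnajc3 was 1437th, Herpud1 2953rd, Xbp1 5096th, Sdf2l1 5679th and Dnajb9 8403rd. Sdf2l1, lowest and highest in the same libraries as Hspa5, was thus farther from it than Dnajc3, Herpud1 and Xbp1, which were not. With 5 libraries such likeness is a description of these samples.

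The rest of the pathway was read from 8 lists of 125 genes, of which 124 were tested. At an unadjusted p under 0.05, 3 were lower and 2 higher, beside 6.75% and 5.65% of all genes. Of the 124, 0 passed the adjusted threshold, and the median log2 fold change was −0.014. The 9 sensor and activation genes held 0 under an unadjusted p of 0.05. Among them Eif2s1, the translation factor subunit that PERK phosphorylates, was 26.7 and 26.1 CPM in Control and 31.5, 30.9 and 30.1 CPM in Igf1r-deleted libraries (log2 fold change 0.22, adjusted p = 0.401 from edgeR). Eif2ak3, which encodes PERK, had a log2 fold change of 0.33 (adjusted p = 0.411 from edgeR). Ern1, which encodes IRE1, had a log2 fold change of −0.24 (adjusted p = 0.418 from edgeR). Of the 9, the genotypes did not overlap for 6 (4 lower, Ern1 among them, and 2 higher), beside 31.0% of all genes.

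Of the 9 PERK outputs, 8 had a negative log2 fold change, where 7301 of all 15298 genes did, and the median was −0.27. At an unadjusted p under 0.05, 2 were lower and 0 higher, beside 6.75% and 5.65% of all genes, and no test was made of the list. Ppp1r15a, which encodes the phosphatase subunit GADD34 that restores translation, was 399 and 336 CPM in Control and 264, 252 and 312 CPM in Igf1r-deleted libraries (log2 fold change −0.41, adjusted p = 0.354 from edgeR). Atf4, the transcription factor of this branch, was 305 and 298 CPM in Control and 267, 235 and 249 CPM in Igf1r-deleted libraries. Its log2 fold change was −0.27 (adjusted p = 0.376 from edgeR). For both genes every Igf1r-deleted library was below both Control libraries. This held for 5 of the 9 genes of the list, beside 14.9% of all genes, and the reverse for 0 of the 9, beside 16.0%. Chac1, an ATF4 target, was under 1 CPM in all libraries with a log2 fold change of −1.03 (adjusted p = 0.450 from edgeR). Ddit3, which encodes CHOP, had a log2 fold change of −0.083 (adjusted p = 0.842 from edgeR), and is named outside the rule for named genes because it is a standard marker of the terminal response. Several genes of this list, such as Ppp1r15a, Atf3 and Cebpb, are also known to respond to cell dissociation, so the list is not particular to PERK.

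Of the 18 other ER chaperones and cochaperones, 0 were below an unadjusted p of 0.05 (median 0.048). The leading values were −0.27 for Sdf2, 0.20 for Dnajb11 and 0.25 for Creld1, with edgeR's adjusted p from 0.461 to 0.488. Of the 18 other disulfide isomerases and oxidases, 1 was higher (Tmx2, log2 fold change 0.32, adjusted p = 0.364 from edgeR), and Pdia5 (0.55) and Qsox1 (−0.18) came next. The list of 10 genes for collagen folding held 0. Its count includes Tango2 (−0.18), whose part in collagen folding is not established. Fkbp9 was at −0.30, Ppib at −0.16 and Serpinh1, the collagen chaperone HSP47, at 0.19, with edgeR's adjusted p from 0.411 to 0.642. Serpinh1 was 1477 and 1744 CPM in Control and 2118, 1709 and 1667 CPM in Igf1r-deleted libraries, lowest and highest in the same libraries as Hspa5.

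Of the 24 tested genes of ER-associated degradation, 1 was lower (Edem2, which marks misfolded glycoproteins by trimming mannose, log2 fold change −0.28, adjusted p = 0.391 from edgeR), followed by Ube2g2 (−0.22) and Os9 (−0.22). The 19 genes of translocation and signal peptide processing held 0, with Srprb at 0.20, Ssr4 at −0.19 and Sec61a1, the channel subunit, at 0.11. Of the 17 genes of N-glycosylation, 1 was higher (Uggt2, a folding sensor of glycoproteins, log2 fold change 0.43, adjusted p = 0.364 from edgeR), followed by Gfpt1 (0.28), a target of XBP1, and Alg2 (0.13).

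A list of 14 heat shock response genes had 12 negative and 2 positive log2 fold changes, with a median of −0.32. At an unadjusted p under 0.05, 6 were lower and 0 higher, beside 6.75% and 5.65% of all genes. At an adjusted p under 0.05, edgeR called 0 of the 14. DESeq2 called 1, beside 1.70% of the genes for which it gave an adjusted p. Dnajb1 was 285 and 291 CPM in Control and 171, 129 and 132 CPM in Igf1r-deleted libraries (adjusted p = 0.310 from edgeR). Hspa1a, an inducible cytosolic Hsp70, was 985 and 1122 CPM in Control and 521, 119 and 114 CPM in Igf1r-deleted libraries, while Hspa5, the Hsp70 of the ER, was at a mean of 964 and 996 CPM. Hspa1b (−1.98), whose sequence is nearly that of Hspa1a so that reads may be divided between them, Hspb1 (−0.40), Bag3 (−0.39) and Hsp90aa1 (−0.37) were the other 4. The summed level of the list was 3883 to 4637 CPM in Control and 1911 to 3099 CPM in Igf1r-deleted libraries.

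The 15 immediate early and dissociation genes, which rise within minutes of handling, were all negative, with 8 under an unadjusted p of 0.05 (Egr2, Dusp1, Zfp36, Junb, Btg2, Fos, Ier2 and Jund, at −0.82 to −0.36). Over all genes, 6.75% were lower at that unadjusted p. At an adjusted p under 0.05, edgeR called 0 of the 15. DESeq2 called 5, beside 1.70% of the genes for which it gave an adjusted p. The 15 genes summed to 23078 to 28026 CPM in Control and 18557 to 21674 CPM in Igf1r-deleted libraries. Dnajb9, Ppp1r15a and Atf4 also had negative log2 fold changes, as did 7301 of the 15298 genes tested. Negative log2 fold changes were also found for 11 of 11 hematopoietic, 11 of 12 epithelial, 11 of 15 fibroblast and 5 of 10 endothelial markers, with medians of −0.82, −0.34, −0.19 and −0.071. The summed levels of all 4 marker lists overlapped between genotypes. The part of these lists in the values of those 3 genes was not tested, nor was the difference between the lists.

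**Figure D5:**
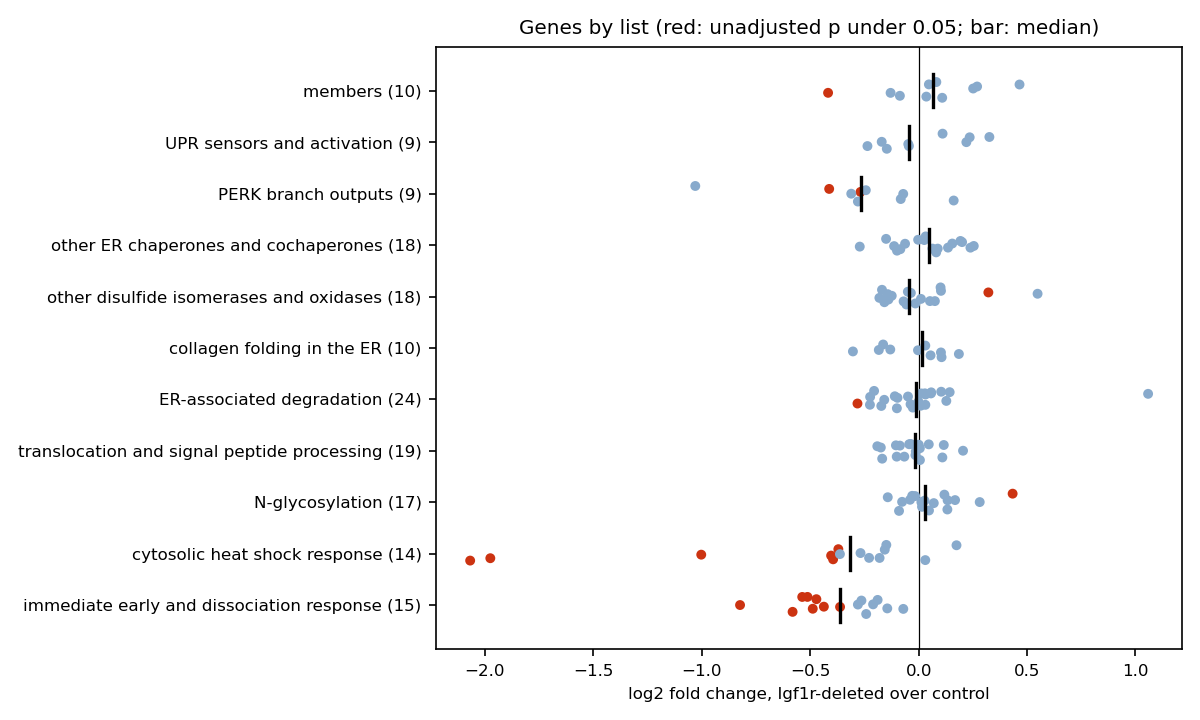
Log2 fold change of every tested gene, Igf1r-deleted over Control (x axis), by list with the number of genes, where red points have an unadjusted p under 0.05 and bars are medians. The members and the ER lists center near 0, with medians from −0.045 to 0.064, while the PERK outputs, heat shock and immediate early lists have medians of −0.27, −0.32 and −0.36.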

How the data were processed

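RNA was sequenced from GFP-sorted P6 lung cells as 150-bp paired reads. The authors made libraries with a NEBNext Ultra kit, trimmed with Trim Galore, aligned to mm10 with Bowtie2 and counted reads per gene with GenomicAlignments. They deposited raw counts per gene symbol without normalization, and tested them with DESeq. Versions, annotation and strand use are not given in the sources used here, so reads of overlapping genes cannot be told apart. Cufflinks FPKM values were not used here.

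All 23478 rows of the 2 Control and 3 Igf1r-deleted columns, matched to samples by title, entered edgeR 4.0.16 (R 4.3.3, limma 3.58.1), with filterByExpr by genotype, TMM factors, the two-sided quasi-likelihood F test on genotype alone and p-values adjusted by Benjamini-Hochberg over 15298 genes. The fit was tested on simulated counts with known changes. Log2 CPM used a prior count of 2. Of DESeq2's adjusted p-values, 3563 were not given by its filtering and stayed out of its calls. Depth was 35116766 to 37597857 counts per library and the lowest member count was 295, so counting error was small beside the spread between libraries.

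The members and lists were chosen with earlier results of these data known, and the lists were written from general knowledge. Named genes are the members, Igf1r, in each list the 3 genes with the smallest unadjusted p and any under 0.05, and the 5 genes nearest to Hspa5. Alternatives were DESeq2 1.42.0, its size factors, library totals, upper-quartile factors, looser and stricter filters (at least 1 count in any library, at least 10 in every library), limma voom, a replicate block and leaving out each library. GENCODE M21 gave the positions, lengths, overlaps and 30-base sequences shared with other genes, and RefSeq the promoter windows. Xbp1 isoforms and protein sequences were not analysed here.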

Additional observations from a re-analysis of the deposited data

How the results depend on the processing

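No member passed an adjusted p of 0.05 under any of the 13 alternatives, where the smallest value was 0.133 (Dnajb9 without Igf1r-deleted replicate 1, edgeR). Dnajb9 was lower in all of them, with log2 fold changes of −0.54 to −0.29. Members with an unadjusted p under 0.05 numbered 2 rather than 1 with library totals (Dnajb9 and Pdia4) and 2 with a replicate block (Dnajb9 and Sdf2l1), and 0 to 3 with a library left out, with 3 without Control replicate 2 (Dnajb9, Pdia4 and Creld2). Members without overlap numbered 2 to 8 with a library left out, with 4 when Igf1r-deleted replicate 1 and 8 when Control replicate 2 was dropped. With fewer libraries, genotypes fail to overlap more readily whatever the gene. The share of all genes was not counted for these smaller sets, and the 31.0% of all 5 libraries does not apply to them. The replicate block gives no count of members without overlap. The median of 0.064 ran from −0.049 (without Igf1r-deleted replicate 1) to 0.16 with a library left out, was also negative (−0.024) without Control replicate 1, and was 0.054 to 0.13 otherwise. Leaving out a library also turned the sign of Hspa5 (−0.12 to 0.21), Pdia6 (−0.10 to 0.15), Creld2 (−0.00049 to 0.54), Xbp1 (−0.025 to 0.18) and Dnajc3 (−0.20 to 0.0086). The cause was not tested. Where only 1 Control library is left, it is assumed to vary like the Igf1r-deleted ones.

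Same-numbered libraries deviated with correlations of 0.208 and 0.121, but with 2 pairs the numbers do not establish pairing. The replicate block moved Dnajb9 to −0.47 (adjusted p = 0.155 from edgeR) and Sdf2l1 to 0.60 (adjusted p = 0.350 from edgeR), and raised edgeR's calls over all genes at an adjusted p under 0.05 from 0 to 136. Those calls numbered 45 without Control replicate 2. Library totals moved the median of all genes from 0.015 to 0.088. The limit is the spread between 2 and 3 libraries and not the depth.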
